A study of Macaca radiata with 6 samples.

Results

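PMAIP1, BCL2L11, BAX and BCL2, 4 of the 14133 genes named on the array, belong to the BCL2 family, the proteins that decide whether a cell opens its mitochondrial outer membrane and dies by the intrinsic route of apoptosis. They were read from 12 probe sets, all those of the array whose platform annotation gives only that symbol, out of 52865 probe sets in all. PMAIP1 had 2 probe sets, BCL2L11 had 6, BAX had 3 and BCL2 had 1. Each probe set is described separately. The values are MAS5 signals, the linear brightness that Microarray Suite 5.0 gives to a probe set, scaled by the authors to the same mean on every array.

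The arrays carried RNA of the corpus luteum, the ovarian gland that makes progesterone after ovulation, from female bonnet monkeys (Macaca radiata). The PGF2alpha group received 3 intramuscular injections of prostaglandin F2-alpha, a prostaglandin known to induce regression of the gland, at 59 µg/kg. The vehicle group received PBS. In both groups dosing was on day 10 of the luteal phase, the gland was collected 24 h later, and each group had 3 arrays, numbered 1 to 3 for PGF2alpha and 4 to 6 for vehicle. The labels give 3 monkeys for each treatment without tying arrays to animals, so each p-value here reflects only how these samples vary among themselves, which may be technical. The probes follow the sequence of the rhesus macaque, a close relative, and how well each matches the bonnet monkey gene was not tested.

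The BCL2 family works as a balance of opposing proteins. BCL2 and its prosurvival relatives sit on the mitochondrial membrane and hold the effectors BAX and BAK1 in check. The BH3-only proteins, among them NOXA (the product of PMAIP1) and BIM (the product of BCL2L11), bind the prosurvival members and free or activate the effectors. Activated BAX forms pores that release cytochrome c, which assembles with APAF1 into the complex that starts the caspase cascade. PMAIP1 was first known as a gene induced by phorbol ester and is induced by several kinds of cell stress, while BCL2L11 is a classical target of the FOXO factors and is held low by growth factor signalling. Loss of luteal cells by apoptosis is a textbook feature of the regressing corpus luteum.

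The median signal of an array lay between 115 and 134. The ratios of 3-prime to 5-prime control probe sets, a check of RNA integrity, overlapped between the groups for beta-actin (1.73 to 1.78 on PGF2alpha arrays, 1.49 to 2.25 on vehicle arrays, exact permutation p = 1) and for GAPDH (1.39 to 1.68 on PGF2alpha arrays, 1.41 to 1.73 on vehicle arrays, exact permutation p = 1). With the other 3-prime probe set of GAPDH the ratio was 1.14 to 1.16 on PGF2alpha arrays and 1.16 to 1.32 on vehicle arrays, with a slight overlap (exact permutation p = 0.2, the smallest possible being 0.1). PGF2alpha replicate 3 stood nearer to the vehicle arrays than the other PGF2alpha arrays did. Its mean correlation with the vehicle arrays across tested probe sets was 0.947, against 0.921 and 0.917 for replicates 1 and 2. By the clock time of hybridisation in the scanner experiment files, PGF2alpha replicates 1 and 3 and vehicle replicates 5 and 6 formed run 1. PGF2alpha replicate 2 and vehicle replicate 4 formed run 2. The date was not used, so the runs are inferred groups. Because the RNA came from whole tissue, fewer cells of a type and less RNA per cell cannot be told apart.

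Of the 12 member probe sets, 10 passed the filter on low values (at or above the median of the array on at least 3 of 6 arrays) and were tested with limma among 26944 probe sets. After PGF2alpha 2 of them rose at an adjusted p below 0.05, 1 of PMAIP1 and 1 of BCL2L11, 0 fell, and 8 did not pass. Over all tested probe sets 5.01% passed in either direction and 3.02% passed with a higher level. The 3 PGF2alpha arrays all lay above the 3 vehicle arrays in 5 of the 10, against 13% of all tested probe sets, and all below them in 0. Over all tested probe sets the groups were apart in 26.8%, counting both directions. Those 5 were both probe sets of PMAIP1 and 3 of BCL2L11. Of the latter, MmugDNA.31741.1.S1_at passed the filter only through the PGF2alpha arrays and so had to differ. MmugDNA.28813.1.S1_at of PMAIP1 reached the array median on only 2 vehicle arrays, so it too needed the PGF2alpha arrays to pass. The 3 probe sets of BAX and that of BCL2 overlapped between the groups. The other 2 probe sets, both of BCL2L11, stayed below the filter and were not tested. The genes were chosen with earlier results of these data known, so these shares describe the members and carry no test of their own.

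**Figure D1:**
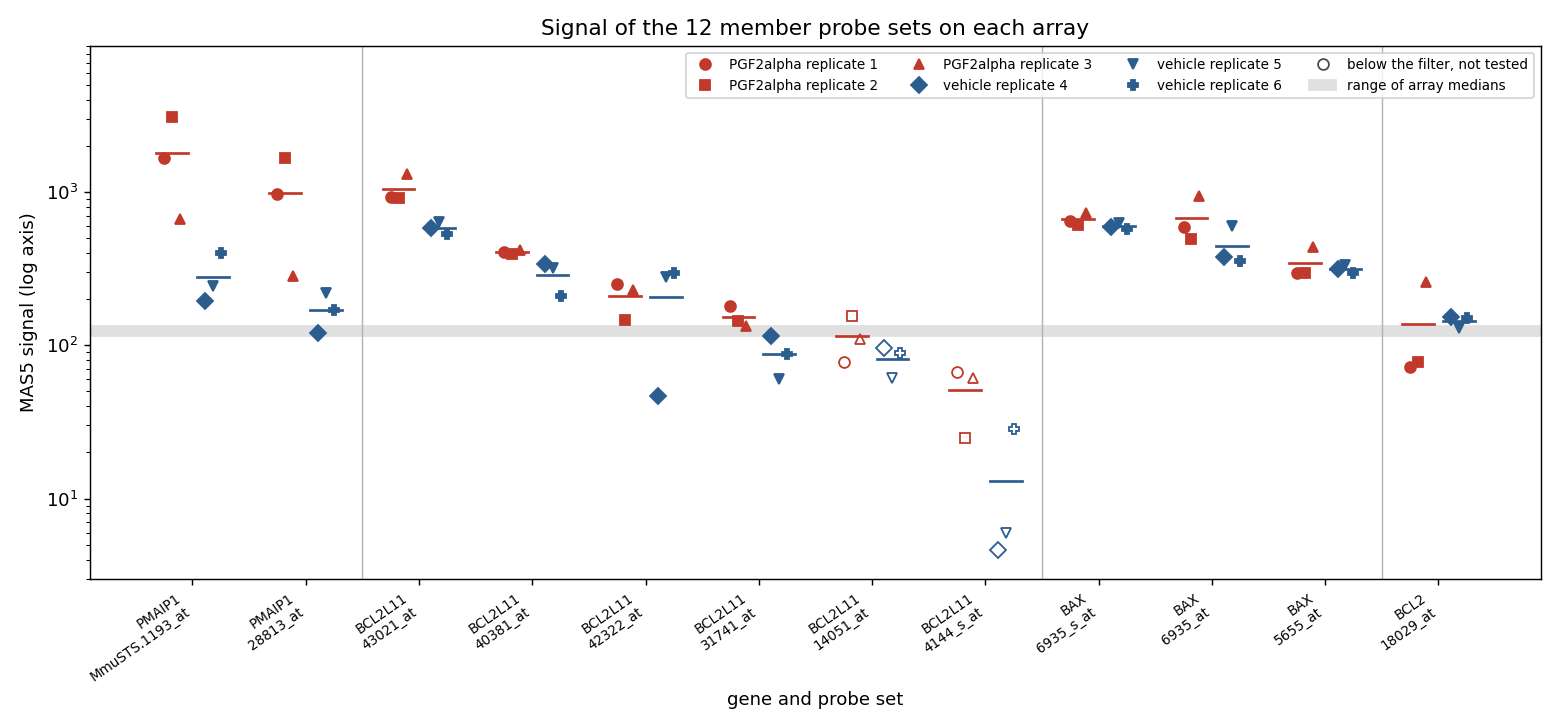
MAS5 signal (log axis) of the 12 member probe sets, with a symbol for each array, a short line for the mean of each group, and PGF2alpha left of vehicle. The grey band is the range of the array medians (115 to 134). Open symbols are the 2 probe sets of BCL2L11 below the filter. The PGF2alpha symbols of PMAIP1 lie above those of vehicle in both probe sets. In MmugDNA.28813.1.S1_at the margin is small (285 on PGF2alpha replicate 3, 221 on vehicle replicate 5).

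PMAIP1 encodes NOXA, a small BH3-only protein that binds chiefly the prosurvival protein MCL1. Its probe set MmuSTS.1193.1.S1_at had signals of 1669, 3079 and 664 on PGF2alpha arrays 1, 2 and 3, against 195, 245 and 398 on vehicle arrays 4, 5 and 6. The groups did not overlap, though PGF2alpha replicate 3 was much closer to the vehicle arrays than replicates 1 and 2 were. The means were 1804 ± 1213 after PGF2alpha and 279 ± 106 after vehicle (SD, n = 3 each), a ratio of 6.46. On the log2 scale of signal + 40, on which all log2 differences are given here, PMAIP1 rose by 2.33 (SE 0.469, 95% interval 1.27 to 3.39, limma adjusted p = 0.0275). Ordered from the largest increase down, this probe set came at place 64 of 26944.

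The other probe set of PMAIP1, MmugDNA.28813.1.S1_at, gave the same order of the PGF2alpha arrays. Its signals were 976, 1683 and 285 on PGF2alpha arrays 1, 2 and 3, against 120, 221 and 169 on vehicle arrays 4, 5 and 6. Here too the groups did not overlap, and PGF2alpha replicate 3 exceeded the highest vehicle array by little. The log2 difference was 2.01 (SE 0.511, 95% interval 0.86 to 3.16), and it did not pass (limma adjusted p = 0.0569). In both probe sets vehicle replicate 4 had the lowest signal of all 6 arrays.

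The size and the call of PMAIP1 depended on single arrays. For MmuSTS.1193.1.S1_at the log2 difference was 2.90 (adjusted p = 0.00221) without PGF2alpha replicate 3. It was 2.26 (adjusted p = 0.0901) without PGF2alpha replicate 1 and 1.83 (adjusted p = 0.0823) without replicate 2. Leaving out vehicle replicates 4, 5 and 6 gave adjusted p-values of 0.0843, 0.0763 and 0.0555, so of the 6 arrays only PGF2alpha replicate 3 could be left out without losing the call. It was also lost when the variance trend was left out of the fit (adjusted p = 0.0567). Array weights brought MmugDNA.28813.1.S1_at past the threshold (2.12, adjusted p = 0.0288), as did leaving out PGF2alpha replicate 3 (2.69, adjusted p = 0.00188). Within run 1 the log2 difference of MmuSTS.1193.1.S1_at was 1.63, and within run 2, with 1 array a group, it was 3.73. For MmugDNA.28813.1.S1_at these values were 1.30 and 3.43.

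BCL2L11 encodes BIM, a BH3-only protein that binds all the main prosurvival members. Its brightest probe set, MmugDNA.43021.1.S1_at, had signals of 925, 912 and 1322 on PGF2alpha arrays 1, 2 and 3, against 586, 636 and 533 on vehicle arrays 4, 5 and 6. Every PGF2alpha array lay above every vehicle array, and here PGF2alpha replicate 3 was the highest. The means were 1053 ± 233 after PGF2alpha and 585 ± 51.6 after vehicle (SD, n = 3 each), a ratio of 1.80. BCL2L11 rose in this probe set by 0.79 (SE 0.183, 95% interval 0.38 to 1.20, limma adjusted p = 0.0426). The call was lost without any 1 of the 6 arrays, with adjusted p from 0.0702 (without PGF2alpha replicate 3) to 0.151 (without vehicle replicate 6), while the log2 difference stayed between 0.62 and 0.88. It was also lost with the hybridisation run as a block (adjusted p = 0.0527), without the variance trend (adjusted p = 0.0749) and without the filter (adjusted p = 0.0687). Between arrays of the same run, the difference was 0.88 within run 1 and 0.60 within run 2.

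The remaining probe sets of BCL2L11 gave smaller or less certain differences. MmugDNA.40381.1.S1_at had signals of 410, 395 and 418 on PGF2alpha arrays 1, 2 and 3, against 340, 319 and 209 on vehicle arrays 4, 5 and 6. The groups did not overlap, the PGF2alpha arrays were close together (408 ± 11.3, against 289 ± 70.2 after vehicle, SD, n = 3 each), and the log2 difference was 0.47 (SE 0.202, adjusted p = 0.227). MmugDNA.31741.1.S1_at had 180, 145 and 133 on PGF2alpha arrays 1, 2 and 3, against 115, 60.1 and 88.4 on vehicle arrays 4, 5 and 6. Its groups did not overlap either, but all 3 vehicle signals were below the median of their array, so it passed the filter only through the PGF2alpha arrays (log2 difference 0.61, SE 0.287, adjusted p = 0.267).

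MmugDNA.42322.1.S1_at had 252, 146 and 229 on PGF2alpha arrays 1, 2 and 3, against 46.6, 278 and 296 on vehicle arrays 4, 5 and 6. The groups overlapped, and vehicle replicate 4 stood far below the others. The log2 difference was 0.22 (SE 0.485, adjusted p = 0.848), and it turned to -0.42 without vehicle replicate 4. The 2 untested probe sets were MmugDNA.14051.1.S1_at, with 78.3 to 156 on PGF2alpha arrays and 61.0 to 96.0 on vehicle arrays, and MmugDNA.4144.1.S1_s_at, with 24.7 to 67.5 on PGF2alpha arrays and 4.64 to 28.3 on vehicle arrays. Fitted without the filter, neither passed (adjusted p = 0.722 and 0.268), against 1.57% of all 52766 probe sets. MmugDNA.4144.1.S1_s_at lay below the median of every array, and the _s_at ending marks a probe set that can match several transcripts. All 6 probe sets of BCL2L11 had a positive log2 difference, from 0.22 to 0.79. They share the same RNA and are not replicates of the treatment.

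BAX encodes the effector that forms pores in the mitochondrial membrane, and its level did not pass the test in any of its 3 probe sets. MmugDNA.6935.1.S1_s_at had signals of 649, 607 and 735 on PGF2alpha arrays 1, 2 and 3, against 591, 629 and 577 on vehicle arrays 4, 5 and 6. The groups overlapped within a narrow range, with a log2 difference of 0.14 (SE 0.151, 95% interval -0.21 to 0.48, limma adjusted p = 0.668). This probe set, the brightest of BAX, also ends in _s_at and can match several transcripts. MmugDNA.6935.1.S1_at had 593, 498 and 938 on PGF2alpha arrays 1, 2 and 3, against 376, 601 and 354 on vehicle arrays 4, 5 and 6. PGF2alpha replicate 3 was the highest there, vehicle replicate 5 exceeded both other PGF2alpha arrays, and the log2 difference was 0.56 (SE 0.267, 95% interval -0.05 to 1.16, adjusted p = 0.274).

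The third BAX probe set, MmugDNA.5655.1.S1_at, had 297, 297 and 440 on PGF2alpha arrays 1, 2 and 3, against 313, 335 and 296 on vehicle arrays 4, 5 and 6. Only PGF2alpha replicate 3 stood above the vehicle arrays. The log2 difference was 0.10 (SE 0.197, 95% interval -0.35 to 0.54, adjusted p = 0.829), and it turned to -0.07 without that array. PGF2alpha replicate 3 had the highest signal of all 6 arrays in each of the 3 BAX probe sets.

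BCL2 encodes the prosurvival protein after which the family is named. Its only probe set, MmugDNA.18029.1.S1_at, had signals of 72.6, 77.9 and 261 on PGF2alpha arrays 1, 2 and 3, against 153, 130 and 151 on vehicle arrays 4, 5 and 6. PGF2alpha replicates 1 and 2 lay below all vehicle arrays and below the median of their own array, while PGF2alpha replicate 3 lay above all vehicle arrays. The means were 137 ± 107 after PGF2alpha and 145 ± 13.1 after vehicle (SD, n = 3 each). The log2 difference was -0.22 (SE 0.387, 95% interval -1.09 to 0.66, limma adjusted p = 0.805). It was -0.68 without PGF2alpha replicate 3 (adjusted p = 0.234) and 0.03 without PGF2alpha replicate 1. Within run 1 it was 0.03 and within run 2 it was -0.71.

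**Figure D2:**
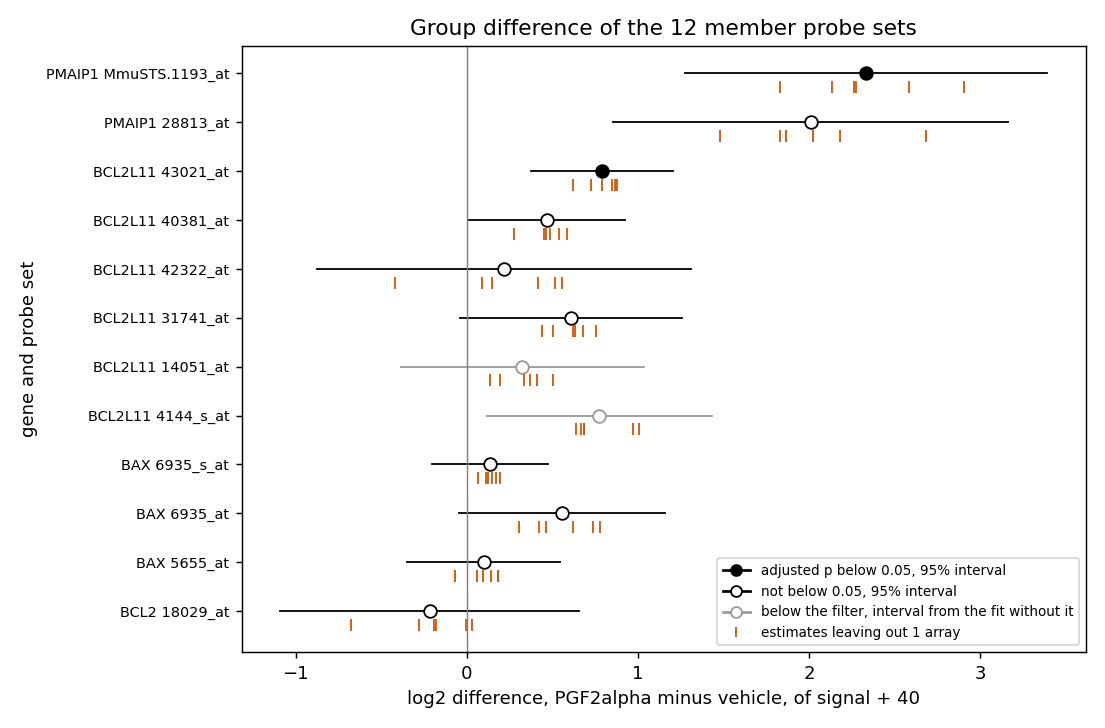
Log2 difference (PGF2alpha minus vehicle, signal + 40) of the 12 member probe sets with its 95% interval, and in orange the estimates leaving out 1 array. Filled points mark the 2 probe sets with an adjusted p below 0.05, MmuSTS.1193.1.S1_at of PMAIP1 (2.33) and MmugDNA.43021.1.S1_at of BCL2L11 (0.79); the grey intervals of the 2 untested probe sets come from a fit without the filter.

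Since the family is read as a balance, the brightest tested probe set of each proapoptotic member was set against that of BCL2 within each array. Such a log2 ratio carries an unknown offset between the probe sets, so only its difference between groups can be read. PMAIP1 minus BCL2 was 3.92, 4.73 and 1.23 on PGF2alpha arrays 1, 2 and 3, against 0.28, 0.75 and 1.20 on vehicle arrays 4, 5 and 6. The groups were separated by a narrow margin between PGF2alpha replicate 3 and vehicle replicate 6, and with a pseudocount of 10 they overlapped. BCL2L11 minus BCL2 was 3.10, 3.01 and 2.18 on PGF2alpha arrays, against 1.69, 1.99 and 1.58 on vehicle arrays, with every PGF2alpha array above every vehicle array.

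BAX minus BCL2 was 2.61, 2.46 and 1.36 on PGF2alpha arrays 1, 2 and 3, against 1.70, 1.98 and 1.69 on vehicle arrays 4, 5 and 6. PGF2alpha replicates 1 and 2 were the highest and PGF2alpha replicate 3 the lowest of the 6. The differences between groups were 2.55 for PMAIP1 (exact permutation p = 0.1), 1.01 for BCL2L11 (exact permutation p = 0.1) and 0.35 for BAX (exact permutation p = 0.4). With 3 pairs compared, the Benjamini-Hochberg adjusted values of these two-sided exact tests were 0.15, 0.15 and 0.4. The smallest p that 3 arrays against 3 allow is 0.1, so these tests could not pass 0.05. Within runs 1 and 2 the difference was 1.60 and 4.45 for PMAIP1, 0.85 and 1.32 for BCL2L11, and 0.15 and 0.75 for BAX.

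**Figure D3:**
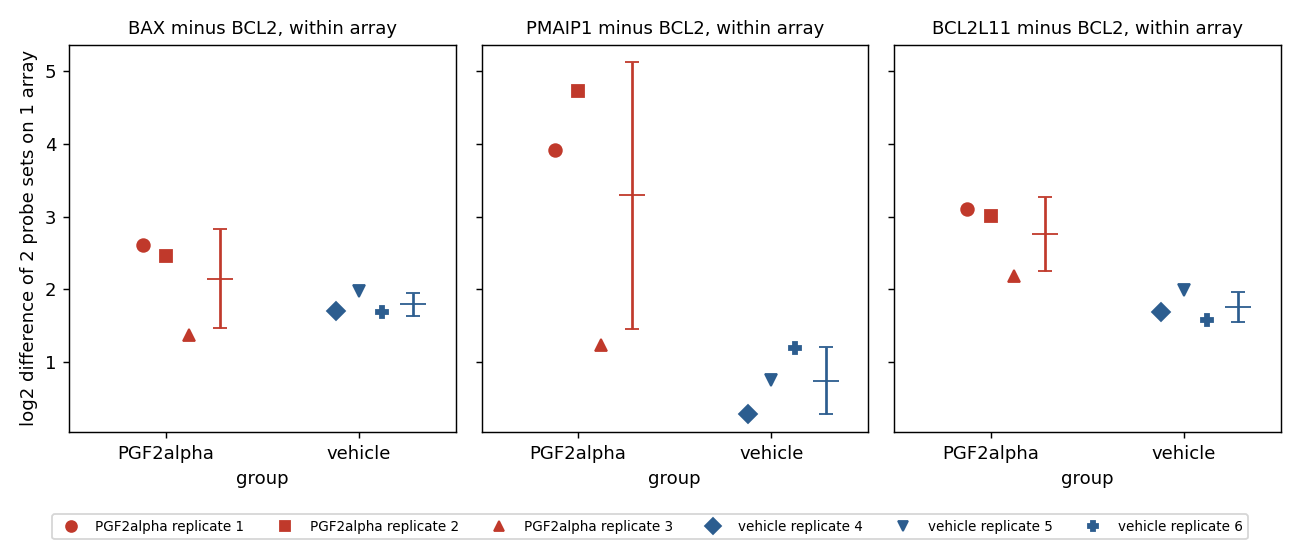
Log2 difference between 2 probe sets on the same array, for BAX, PMAIP1 and BCL2L11 against BCL2, with a symbol for each array and the mean ± SD of each group. The PGF2alpha arrays lie above the vehicle arrays for PMAIP1 and BCL2L11. PGF2alpha replicate 3 is lowest of its group in all 3 panels, which share the same BCL2 probe set. That probe set was brightest on this array (261, against 72.6 and 77.9 on PGF2alpha replicates 1 and 2). On PGF2alpha replicates 1 and 2 it was below the median of the array.

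The wider BCL2 family, without the 4 genes above, gave no call. Of 24 further family and partner genes 16 had a named probe set and 12 passed the filter, of which 0 were called in either direction with limma (3 at an unadjusted p below 0.05), against 6.13% of all 9980 tested genes (3.81% higher, 2.32% lower), of which 2432 had an unadjusted p below 0.05. The share of family genes at that unadjusted level is thus near that of all genes. Their median log2 difference was 0.04, against -0.02 over all tested genes. A gene was taken here as its tested probe set of highest mean. The BH3-only gene BBC3, which encodes PUMA, had 782, 673 and 569 on PGF2alpha arrays, against 453, 700 and 779 on vehicle arrays, and the groups overlapped (log2 difference 0.09, adjusted p = 0.871). BID, BAD, BMF and HRK were not analysed here, and BIK stayed below the filter.

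Among the effectors the BAX relatives BAK1 and BOK stood at 0.02 (adjusted p = 0.975) and 0.07 (adjusted p = 0.885). The probe sets of BOK differed: the other one, MmugDNA.27900.1.S1_at, had 238 to 291 on PGF2alpha arrays, against 124 to 177 on vehicle arrays, without overlap (0.67, adjusted p = 0.109). Of the prosurvival genes, MCL1, the main partner of NOXA, had 1714, 1883 and 1794 on PGF2alpha arrays 1, 2 and 3, against 1601, 1213 and 1400 on vehicle arrays 4, 5 and 6. The groups did not overlap, and the log2 difference of 0.35 did not pass (SE 0.152, 95% interval 0.01 to 0.70, adjusted p = 0.222). Its probe set ends in _x_at, which marks possible cross-hybridisation, and its other probe set stood at 0.40 (adjusted p = 0.297). BCL2L1, which encodes BCL-XL, stood at 0.00 in its brightest probe set (adjusted p = 0.995). Its other probe sets stood at 0.94 (adjusted p = 0.158, groups apart, all vehicle arrays below the array median) and 0.25 (adjusted p = 0.82, groups overlapping). BCL2L10 stood at -0.19 (adjusted p = 0.731). BCL2A1 was not tested and BCL2L2 was not analysed here.

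Of the partner genes, the HSP70 co-chaperone BAG3 had 2391, 3713 and 2250 on PGF2alpha arrays, against 1951, 1849 and 1710 on vehicle arrays. The groups did not overlap, and the log2 difference of 0.56 did not pass (adjusted p = 0.148). BNIP1, a protein of membrane traffic with a BH3 motif, had 432, 484 and 520 on PGF2alpha arrays, against 671, 580 and 674 on vehicle arrays. All its PGF2alpha arrays lay below the vehicle arrays, and the log2 difference of -0.39 did not pass either (adjusted p = 0.191).

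**Figure D4:**
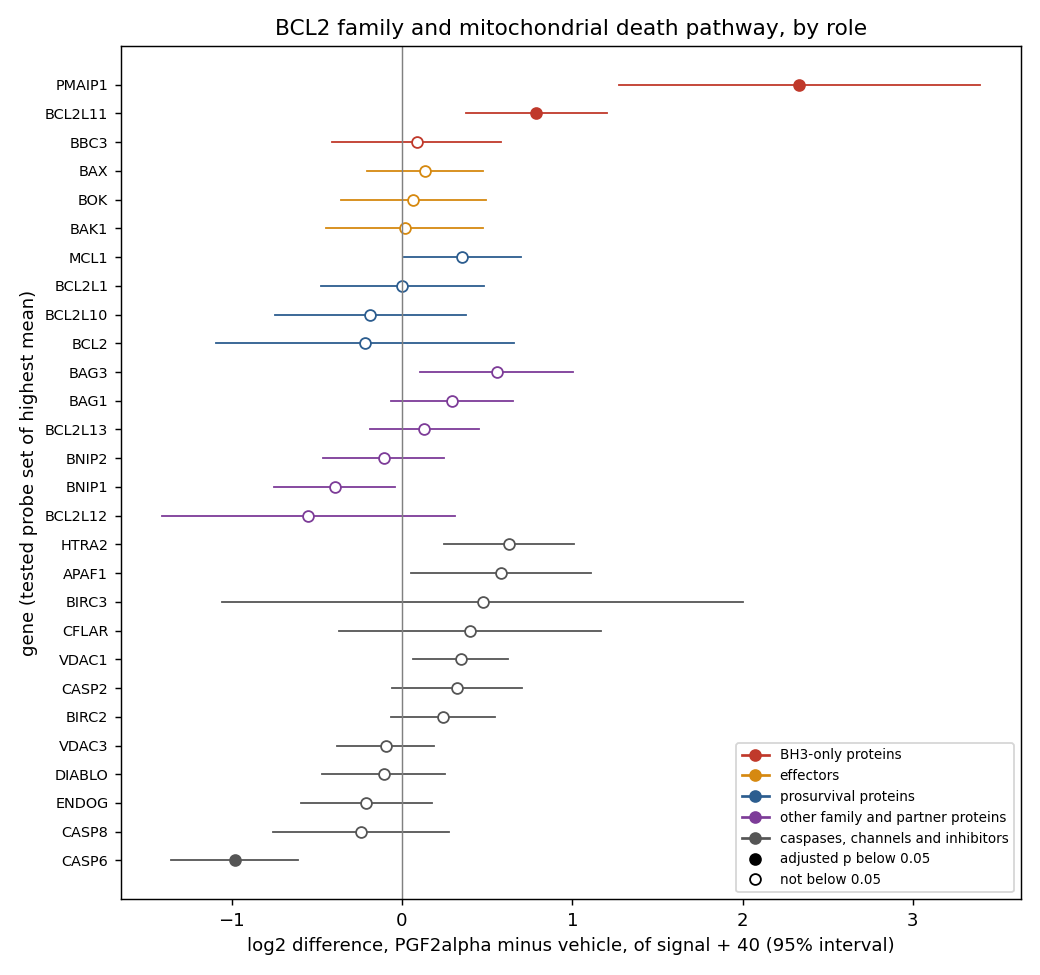
Log2 difference (PGF2alpha minus vehicle, signal + 40) with its 95% interval, grouped by role and sorted within each role. Shown are the 16 tested genes of the BCL2 family lists and 12 tested caspases, mitochondrial channels and other death pathway genes. Filled points passed an adjusted p of 0.05, namely PMAIP1, BCL2L11 and CASP6.

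A separate list held caspases, mitochondrial channels and other genes of the death pathway. Of its 12 tested genes (20 listed), 1 fell and 0 rose with limma at an adjusted p below 0.05. Over all tested genes 2.32% were lower and 3.81% higher. An unadjusted p below 0.05 was reached by 4 of the 12 (3 higher, 1 lower), against 2432 of all 9980. Their median log2 difference was 0.28, against -0.02 over all tested genes. The gene that fell was CASP6, an executioner caspase that cleaves nuclear lamins. It had 779, 860 and 890 on PGF2alpha arrays 1, 2 and 3, against 1729, 1998 and 1427 on vehicle arrays 4, 5 and 6. Every PGF2alpha array lay below every vehicle array, and CASP6 fell by 0.98 (SE 0.165, limma adjusted p = 0.0151, with log2 differences of -0.99 within run 1 and -0.98 within run 2). The call was lost without PGF2alpha replicate 1 (adjusted p = 0.0602) or replicate 2 (adjusted p = 0.061) and kept under the 14 other alternatives. HTRA2, a mitochondrial protease that antagonises caspase inhibitors, had 1319, 1184 and 961 on PGF2alpha arrays, against 757, 650 and 781 on vehicle arrays. Its groups did not overlap, and the log2 difference of 0.63 did not pass (adjusted p = 0.0673), though it did without PGF2alpha replicate 3 (adjusted p = 0.0394) and with a filter at the 70th percentile (adjusted p = 0.0487). Its other probe sets stood at 0.62 (adjusted p = 0.0773) and 0.23 (adjusted p = 0.545).

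APAF1, the scaffold that cytochrome c activates, had 662, 1024 and 552 on PGF2alpha arrays, against 401, 558 and 459 on vehicle arrays, with overlapping groups (0.58, adjusted p = 0.195, and 0.16 with adjusted p = 0.668 in its other probe set). The caspase inhibitor BIRC3 had 367, 2500 and 233 on PGF2alpha arrays, against 417, 359 and 539 on vehicle arrays. PGF2alpha replicate 2 alone was high, the array on which PMAIP1 was also highest (log2 difference 0.47, adjusted p = 0.752). The other probe set of BIRC3 was also high on that array alone, at 726. CASP9 and CYCS were not analysed here.

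Genes known to control PMAIP1, BAX and BCL2L11 were followed as 2 further lists. Of 12 tested genes of the DNA damage response (17 listed), 0 passed with limma, against 6.13% of all tested genes, and 2 had an unadjusted p below 0.05, against 2432 of all 9980. Their median log2 difference was 0.05. The cell cycle inhibitor CDKN1A had 3538, 3604 and 3762 on PGF2alpha arrays, against 2906, 1855 and 1819 on vehicle arrays. Its groups did not overlap, and the log2 difference of 0.75 did not pass (adjusted p = 0.0553). CDKN1A passed under 4 alternatives: leaving out vehicle replicate 4 (adjusted p = 0.0255), array weights (adjusted p = 0.0389), blocking on the run (adjusted p = 0.0452) and a filter at the 70th percentile (adjusted p = 0.0487). GADD45B, a stress-induced gene, stood at 0.49 (adjusted p = 0.14), and its other probe sets at 0.47 (adjusted p = 0.25) and 0.39 (adjusted p = 0.374). MDM2, a ubiquitin ligase, stood at -0.11 (adjusted p = 0.889), and its other probe sets at -0.50 (adjusted p = 0.274) and 0.14 (adjusted p = 0.79). A probe set of RRM2B, a ribonucleotide reductase subunit, other than its brightest fell by 1.02 (adjusted p = 0.0197), while the brightest stood at -0.03 (adjusted p = 0.951).

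Of 11 tested stress and FOXO regulators (15 listed), 0 passed with limma, against the same 6.13%, and 3 had an unadjusted p below 0.05, a share near that of 2432 of 9980 over all genes. Their median log2 difference was 0.00. ATF3, a stress-induced transcription factor, had 584, 989 and 312 on PGF2alpha arrays 1, 2 and 3, against 309, 166 and 192 on vehicle arrays 4, 5 and 6. The PGF2alpha arrays ranked in the same order as for PMAIP1, and PGF2alpha replicate 3 was only just above vehicle replicate 4. The log2 difference of 1.25 did not pass (SE 0.367, adjusted p = 0.0878), but it did on leaving out PGF2alpha replicate 3 (adjusted p = 0.0166) or blocking on the run (adjusted p = 0.0289). The other probe set of ATF3 stood at 0.12 with overlapping groups (adjusted p = 0.796). SGK1, a kinase that phosphorylates FOXO factors, stood at 0.64 (adjusted p = 0.153), and its other probe set at 0.81 (adjusted p = 0.0966). FOXO1 and FOXO4 stood at -0.35 (adjusted p = 0.501) and -0.09 (adjusted p = 0.796).

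The genes whose pattern over the 6 arrays was most like that of each member were taken by Pearson's r on the log2 scale among 9979 other tested genes, as a description. With so few arrays high values are common, and 128 genes had r above 0.95 with PMAIP1, 25 with BCL2L11, 12 with BAX and 10 with BCL2. For PMAIP1 the nearest were PYCARD, which encodes the inflammasome adaptor ASC (r = 0.995 over 6 arrays), PTX3, a secreted pattern recognition protein (r = 0.995), and CD44, a hyaluronan receptor (r = 0.993). PTX3 had 1500, 2829 and 705 on PGF2alpha arrays, against 190, 271 and 322 on vehicle arrays. PYCARD had 1158, 1748 and 542 on PGF2alpha arrays, against 223, 219 and 309 on vehicle arrays. PTX3 rose by 2.33 (adjusted p = 0.0184) and PYCARD rose by 1.90 (adjusted p = 0.0221). CD44 stood at 0.88 (adjusted p = 0.0805).

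For BCL2L11 the nearest were UBE2J1, a ubiquitin-conjugating enzyme of the endoplasmic reticulum (r = 0.991), CMTM7 (r = 0.975) and LOC710270 (r = 0.975), and their log2 differences of 0.58, 0.35 and 0.39 did not pass. For BAX they were RCSD1 (r = 0.996), ADPRS (r = 0.977) and NCSTN, a subunit of gamma-secretase (r = 0.974). For BCL2 they were SUSD6 (r = 0.978), MORC4 (r = 0.974) and FYB2 (r = 0.973). FYB2 showed the split of the PGF2alpha arrays most plainly, with 247, 216 and 1123 on PGF2alpha arrays 1, 2 and 3, against 616, 612 and 661 on vehicle arrays 4, 5 and 6.

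Summed markers of other cells also differed between the groups. The summed signal of macrophage and monocyte markers (11 of 13 named, 7 of 11 tested higher at an adjusted p below 0.05, against 3.81% of all tested genes) was 27344, 33876 and 29987 on PGF2alpha arrays 1, 2 and 3, against 14523, 8570 and 12132 on vehicle arrays 4, 5 and 6. Replicate 3 exceeded replicate 1 there, unlike in PMAIP1. MARCO, 1 of the 7, passed the filter only through the PGF2alpha arrays. That of neutrophil markers (7 of 9 named, 4 of 4 tested higher) was 23149, 30877 and 12379 on PGF2alpha arrays 1, 2 and 3, against 3582, 6732 and 3467 on vehicle arrays 4, 5 and 6. The order of the PGF2alpha arrays was that of PMAIP1. S100A8, S100A9 and MMP9 needed the PGF2alpha arrays to pass the filter. On vehicle arrays most of the neutrophil sum was LCN2 (3056, 6486 and 2954 on vehicle arrays 4, 5 and 6). CSF3R stayed below the filter and was not tested. S100A12 and FPR1 of the neutrophil list lay below the array median on all 6 arrays. The part of macrophages and neutrophils in the levels of PMAIP1 was not tested.

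T and NK lymphocyte markers (6 of 12 named) summed to 24907 to 41075 on PGF2alpha arrays, against 11225 to 15200 on vehicle arrays. On PGF2alpha arrays most of the sum was GNLY. Of 4 tested markers, only GNLY was higher at an adjusted p below 0.05, against 3.81% of all tested genes. GZMA of the same list went the other way (-0.85, every PGF2alpha array below every vehicle array, adjusted p = 0.0584), and CD4 and GZMB overlapped between the groups. B lymphocyte markers (3 of 5 named, 0 of 1 tested called) summed to 285 to 347 on PGF2alpha arrays and 254 to 400 on vehicle arrays, with CD79A below the array median on all 6 arrays. BCL2 is abundant in lymphocytes, and their part in its signal was not tested.

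Steroidogenic markers (STAR, HSD3B2, FDX1 and INHA, 4 of 8 named) were bright on all arrays. Of the 4 tested, only STAR was called lower (limma adjusted p = 0.0497), against 2.32% of all tested genes. On PGF2alpha arrays 1, 2 and 3 these markers summed to 71929, 80379 and 126454. On vehicle arrays 4, 5 and 6 they summed to 142446, 168853 and 141906. PGF2alpha replicate 3, the array with the highest BCL2 and BAX and the lowest PMAIP1 of its group, had the highest steroidogenic sum and the lowest neutrophil sum of its group. The part of these cells in the levels of BCL2 and BAX was not tested. Endothelial markers (8 of 8 named, 1 of 8 tested higher) summed to 23574 to 33250 on PGF2alpha arrays and 23427 to 27141 on vehicle arrays. Fibroblast markers (5 of 6 named, 1 of 5 tested higher) summed to 70503 to 87389 on PGF2alpha arrays and 53036 to 73510 on vehicle arrays. Red cell markers (3 of 3 named, 0 of 3 tested called) summed to 1002 to 2181 on PGF2alpha arrays and 1826 to 2127 on vehicle arrays. These 3 sums overlapped between the groups. Over all tested genes 3.81% were called higher.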

How the data were processed

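Corpus luteum RNA was hybridised to 6 Affymetrix Rhesus arrays, the type named in the file headers of the scanner. The authors deposited MAS5 signals, an intensity on a linear scale for each probe set, per the submitters' processing notes; the trimmed mean (2% left out at each end) was 500.0 on every array, so no further normalization was applied. Genes were named from a platform annotation table of 2016. Controls (99 probe sets) entered no test. Values were taken as log2(signal + 40), 40 being the 25th percentile of the table, which understates the change of low genes. Probe sets at or above the array median on at least 3 of 6 arrays (26944) were fitted with limma 3.58.1 in R 4.3.3 (eBayes with a variance trend, no covariate, two-sided, Benjamini-Hochberg over all tested probe sets, threshold 0.05). The fit was tested on simulated data. No detection calls were used. The number of arrays limits the precision.

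Genes were named by a rule: all 12 member probe sets, each called gene and the 2 of smallest p of each list, and the 3 most like each member. BBC3, BAK1, BCL2L1, APAF1, BIRC3, MDM2, RRM2B, FOXO1 and FOXO4 were chosen after their values were seen. The members and the lists were chosen with earlier results of these data known. Alternatives were 2 other normalizations, pseudocounts of 10 and 160, 2 other filters, eBayes without trend or robust, the hybridisation run as a block, array weights, every probe set counted, and each array left out. Coordinates and sequences were not used here. Some genes of the lists are not reported here.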

Additional observations from a re-analysis of the deposited data

How the results depend on the processing

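No paired analysis was possible because the groups share no replicate numbers. With 3 arrays a group and no detection calls, changes of probe sets near the array median are the least certain. Leaving out 1 array at a time, the log2 difference ran from 1.83 to 2.90 for PMAIP1 MmuSTS.1193.1.S1_at, from 1.48 to 2.69 for MmugDNA.28813.1.S1_at and from 0.62 to 0.88 for BCL2L11 MmugDNA.43021.1.S1_at. It crossed 0 for BCL2L11 MmugDNA.42322.1.S1_at (-0.42 to 0.56), BAX MmugDNA.5655.1.S1_at (-0.072 to 0.18), BCL2 (-0.68 to 0.030), BCL2L10 (-0.35 to 0.014) and BOK (-0.057 to 0.17). The number of called probe sets, 1351 in all, ran from 223 to 1903. That of called genes ran from 0 to 1 for the BCL2 family (2 with all arrays). It ran from 0 to 2 in the death pathway list (1 with all arrays). In each of the DNA damage and stress lists it ran from 0 to 1 (0 with all arrays).

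Without the variance trend the call of PMAIP1 was lost (2.33, adjusted p = 0.0567), as was that of BCL2L11 (0.79, adjusted p = 0.0749), and the counts were 669 probe sets and 0 family genes. Without the filter they were 826 and 1, BCL2L11 being lost (0.79, adjusted p = 0.0687). With the run as a block BCL2L11 was lost too (0.79), which left 1 family gene, and CDKN1A and ATF3 gave 1 call each in their lists. Array weights brought MmugDNA.28813.1.S1_at past the threshold (2.12) and gave 1 DNA damage gene, CDKN1A. The filter at the 70th percentile gave 2 genes of the death pathway list, CASP6 and HTRA2, and 1 DNA damage gene. It left MmugDNA.28813.1.S1_at, MmugDNA.42322.1.S1_at, MmugDNA.31741.1.S1_at, MmugDNA.5655.1.S1_at and BCL2 untested. Counting every probe set gave 1 DNA damage gene, RRM2B. The cause was not tested in these cases. The 3 ratios to BCL2 kept their sign in all 10 alternatives run for each.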
